A study of Canis lupus with 20 samples.

Results

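Ribosomal protein genes encode the proteins of the cytosolic ribosome, and their transcripts were examined in the left heart of dogs after loss of renal mass. The members were all genes whose single symbol on the canine array is a cytosolic ribosomal protein name (RPL, RPS or RPLP followed by its number, or RPSA), each represented by its brightest probe set. The rule found 54 of the 15115 genes that had a probe set with 1 symbol, 33 of the large and 21 of the small subunit, through 111 probe sets. RPL3, RPSA and RPS6 have no probe set with 1 symbol and are not given.

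The arrays cover 4 groups of 5 samples taken 12 weeks after surgery: left atrium of sham operated dogs, left atrium of uninephrectomized dogs, left ventricle of sham operated dogs and left ventricle of uninephrectomized dogs. All were otherwise normal dogs, the uninephrectomy removed the right kidney, and 6 dogs were assigned to each operation. The labels give no age, sex or strain. The comparisons ask what the operation did in each chamber, whether the chambers differed in it, and how atrium and ventricle differ.

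The ribosome has a large subunit, which joins amino acids, and a small subunit, which reads the message. Most of its proteins are present in a single copy per ribosome, and cells make them in step, largely because their messages start with a pyrimidine tract (the TOP motif) through which mTOR and LARP1 control translation. Most members are made in every cell, but a few have paralogs of narrower use. In heart and skeletal muscle RPL3L replaces RPL3 in part of the ribosomes.

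Array signals are log2 values as deposited, and differences are log2 differences ± standard error from a limma fit over all 20 arrays, with 5 arrays in each group. A gene was called when its Benjamini-Hochberg adjusted p over 30047 tested probe sets was under 0.05. Array medians lay between 2.33 and 2.39. Further up the scale the chambers differed: the 75th percentile had means of 5.39 and 5.46 in sham and uninephrectomized atria. In ventricles it had means of 5.25 and 5.30. Quantile normalization was among the alternatives tried. The chamber labels matched their defining markers: MYL2, the ventricular light chain, had means of 14.66 and 14.55 in the ventricular groups against 3.81 and 4.72 in the atrial ones, and NR2F1, an atrial transcription factor, had 9.30 and 9.01 in the atrial against 2.49 and 2.22 in the ventricular groups. Nothing in the labels says how tissue was sampled within a chamber, and in whole tissue fewer cells of a type and less RNA per cell cannot be told apart.

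Most ribosomal protein genes were among the brightest on the array. The median of their mean signals was 12.14, against 2.70 over all 15115 genes, and 46 of 54 members had a mean of at least 10, as 958 genes of the whole array did. Both use the brightest probe set of each gene, which raises the level. With the mean of all probe sets of a gene the medians were 9.95 and 2.42, and 27 members and 429 genes reached 10. Ranked by mean signal, 44 members lay at or above the 95th percentile and 24 at or above the 99th. RPL32 had the highest mean, 13.62. The small subunit members had a median of 12.43 and the large subunit members 11.95. Signals of different probe sets depend on probe sequence, so these ranks describe brightness and not the amount of RNA. Whether the brightest probes were near saturation was not examined.

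**Figure D1:**
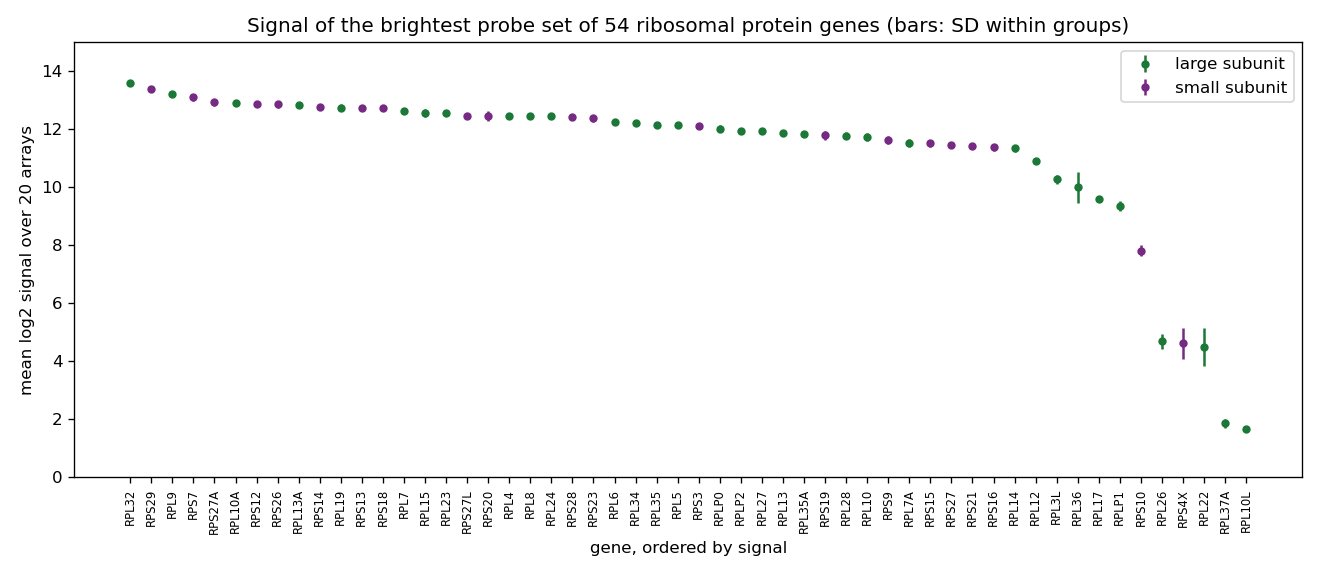
Mean log2 signal over 20 arrays (vertical axis) of the brightest probe set of each of 54 ribosomal protein genes in order of signal (horizontal axis), coloured by subunit; bars are the SD within groups. Signals fall slowly from RPL32 at 13.62 to RPL12 at 10.93 and then drop to RPL37A at 1.86 and RPL10L at 1.67.

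At the low end stood 5 members with a mean under 5. RPL10L, a testis-expressed copy of RPL10, had a mean of 1.67, and RPL37A had a mean of 1.86. Both lay under the filter on dim probe sets (mean 1.87), so 52 members were tested. RPL22 (4.50), RPS4X (4.63) and RPL26 (4.69) passed the filter at the 64.7th, 65.4th and 65.8th percentile. These genes encode parts of the ribosome of every cell. Another 75 probe sets of the array list a member together with other symbols, had means up to 13.46, and belong to no gene here. Whether the dim sets of RPL22, RPS4X, RPL26 and RPL37A read the main transcript of their gene was not tested.

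The members that varied most between arrays of a group were 3 of the dim ones and RPL36 and RPS10. RPL22 had an SD within groups of 0.67, RPS4X and RPL36 of 0.53, RPL26 of 0.25 and RPS10 of 0.18, where the median over tested members was 0.11. RPL22 shows the spread: in sham atria its signals were 4.97, 5.30, 2.94, 3.92 and 5.03, and in uninephrectomized atria 5.32, 5.46, 4.83, 3.59 and 5.16. RPL36, a bright member, read 10.40, 8.99, 10.31, 10.14 and 10.03 in sham ventricles and 10.46, 9.20, 10.36, 10.10 and 9.06 in uninephrectomized ventricles. In both genes the groups overlap throughout.

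In sham dogs most ribosomal protein genes were higher in the atrium than in the ventricle. Limma called 30 of 52 higher and 2 lower (adjusted p under 0.05), where 11.2% of all tested probe sets were called higher and 9.62% lower. The members' median difference was 0.21, against -0.01 for all 11423 tested genes, and 46 of 52 were positive, as were 48.9% of all tested probe sets. The called increases were small, from 0.20 for RPL35 to 0.48 for RPL10, or 1.15- to 1.39-fold. In 17 members every sham atrial array lay above every sham ventricular array, as in 7.59% of all tested probe sets, and in 2 every one lay below, as in 6.67%. Fitted on the 10 sham arrays alone, 12 members were called higher and 2 lower. Leaving out sham atrial array 2 left 20 called higher. The shares of all tested probe sets called in these fits are not given here.

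Both subunits took part. Of the large subunit 19 of 31 members were called higher and 1 lower, with a median of 0.21, and of the small subunit 11 of 21 were called higher and 1 lower, with a median of 0.22. For comparison, of the 958 genes with a mean of at least 10, 182 were called higher and 237 lower in the sham atrium, with a median of -0.05.

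**Figure D2:**
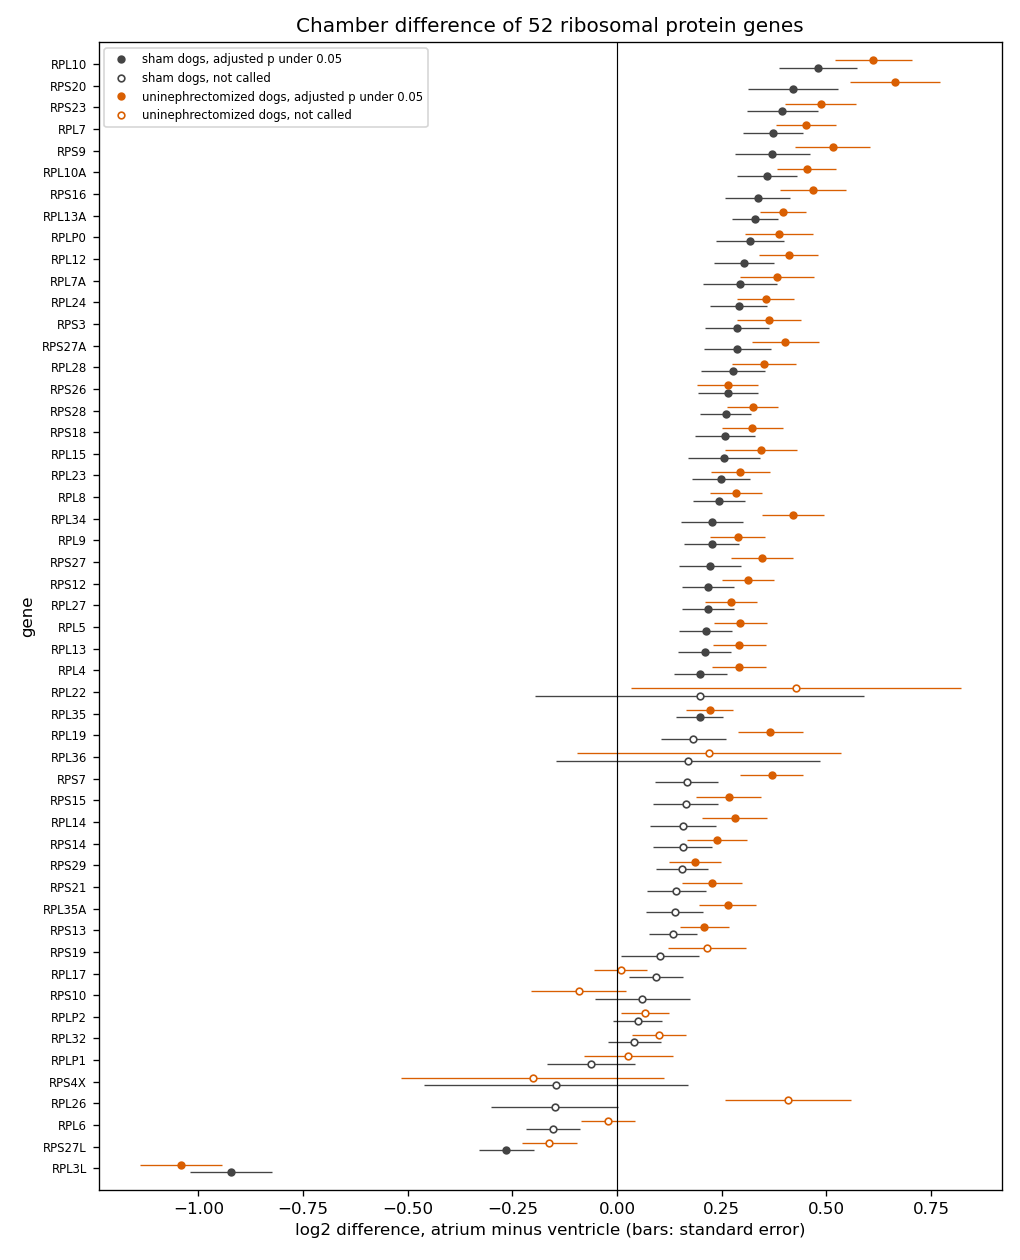
Log2 difference of atrium minus ventricle (horizontal axis, bars are standard errors) for 52 ribosomal protein genes in sham (grey) and uninephrectomized dogs (orange), in order of the sham value; filled points passed adjusted p under 0.05. Most points lie right of 0, and RPL3L stands alone at the left at -0.92 and -1.04.

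Among large subunit proteins RPL10, which joins the subunit in the last step of its assembly, had the largest called increase. Its signals were 11.79, 12.06, 11.88, 12.00 and 12.23 in sham atria and 11.39, 11.32, 11.66, 11.57 and 11.61 in sham ventricles, so the groups do not overlap. The difference was 0.48 ± 0.09 (adjusted p = 0.00102). RPL13A, which also has a role outside the ribosome in silencing inflammatory messages, had the smallest p of the members that rose. It read 12.89, 13.16, 12.98, 13.01 and 13.08 in sham atria and 12.64, 12.72, 12.73, 12.72 and 12.66 in sham ventricles (0.33 ± 0.06, adjusted p = 0.000281). Its highest ventricular array lay below its lowest atrial one.

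RPL7 and RPL10A, a protein of the L1 stalk, rose by similar amounts. RPL7 had a mean of 12.89 ± 0.12 (SD) in sham atria and 12.51 ± 0.07 (SD) in sham ventricles (0.37 ± 0.07, adjusted p = 0.00101). RPL10A had 13.10 ± 0.16 (SD) and 12.74 ± 0.09 (SD) (0.36 ± 0.07, adjusted p = 0.00124). In the small subunit RPS23, a protein of the decoding centre, had 12.62 ± 0.17 (SD) against 12.23 ± 0.10 (SD) (0.39 ± 0.08, adjusted p = 0.00227). RPS20, of the head of the subunit, differed by 0.42 ± 0.11 (adjusted p = 0.00867). Its sham atrial arrays spread from 12.41 to 12.99, all above the ventricular range of 12.11 to 12.33.

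In the stalk of the large subunit, which recruits the elongation factors, RPLP0 was called higher, and RPLP1 and RPLP2 did not pass the test. RPLP0, the protein that anchors it, had signals of 12.05, 12.29, 11.94, 12.13 and 12.43 in sham atria and 11.83, 11.81, 11.77, 11.84 and 12.01 in sham ventricles. The ranges overlap through ventricular array 5 (0.32 ± 0.08, adjusted p = 0.00891, or 0.0506 in the fit on sham arrays alone). RPLP2 differed by 0.05 ± 0.06 (adjusted p = 0.607). RPLP1 differed by -0.06 ± 0.11 (adjusted p = 0.739). RPLP1 and RPLP2 bind RPLP0 as dimers. Differences between these 3 genes were not tested.

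RPL3L was the member with the largest difference between the chambers, and it ran the other way. In sham dogs it read 9.80, 9.70, 10.12, 9.76 and 9.70 in the atrium and 10.69, 10.76, 10.76, 10.60 and 10.88 in the ventricle. Every atrial array lay below every ventricular one, by -0.92 ± 0.10 or 1.89-fold (adjusted p = 1.91e-06). After uninephrectomy it read 9.97, 9.45, 9.61, 9.85 and 9.96 in the atrium and 10.76, 10.78, 10.88, 10.77 and 10.86 in the ventricle. The difference was -1.04 ± 0.10 or 2.06-fold lower (adjusted p = 3.42e-07), again without overlap. The array has 3 probe sets for RPL3L, and the other two gave -1.03 ± 0.11 and -1.09 ± 0.16 in sham dogs. Its signal lay at the 94.8th percentile of all genes. RPL3 itself, for which RPL3L substitutes near the peptidyl transferase centre, is not given.

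RPS27L, a paralog of RPS27 that p53 induces, was the only other member called lower in the sham atrium. It had signals of 12.29, 12.45, 12.43, 12.34 and 12.34 in sham atria and 12.50, 12.56, 12.67, 12.70 and 12.75 in sham ventricles, with no overlap (-0.26 ± 0.07, adjusted p = 0.00674). A second probe set of RPS27L gave -0.29 ± 0.08. RPS27 stood on the other side: its sham atrial arrays read 11.39, 11.65, 11.56, 11.61 and 11.73 and its ventricular arrays 11.22, 11.24, 11.57, 11.43 and 11.37. These ranges overlap (0.22 ± 0.07, adjusted p = 0.0379). In uninephrectomized dogs RPS27 differed by 0.35 ± 0.07 (adjusted p = 0.00159), while RPS27L differed by -0.16 ± 0.07 and was not called (adjusted p = 0.0745). Its second probe set gave -0.21 ± 0.08 in these dogs (adjusted p = 0.0459 in the same limma fit). Adjusted p for the brightest RPS27L set in these dogs lay between 0.0256 and 0.0481 under 5 of the alternatives tried. Over all alternatives it ran from 0.0256 to 0.177.

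**Figure D3:**
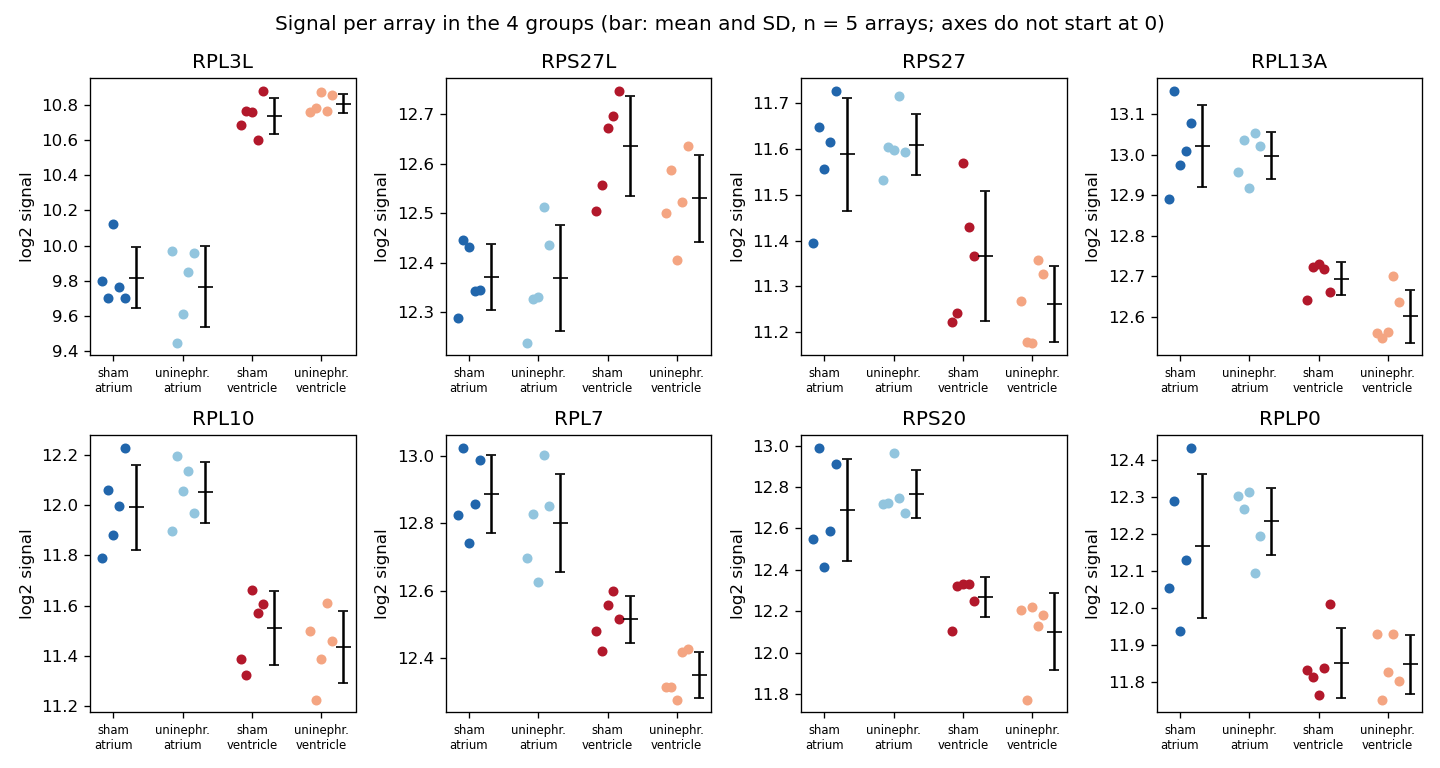
Log2 signal (vertical axes, not starting at 0) of RPL3L, RPS27L, RPS27, RPL13A, RPL10, RPL7, RPS20 and RPLP0 on each of 20 arrays by group (horizontal axes); bars are mean and SD of 5 arrays. RPL3L has ventricular arrays between 10.60 and 10.88 and atrial ones between 9.45 and 10.12, whereas RPL10 has atrial arrays between 11.79 and 12.23 and ventricular ones between 11.23 and 11.66.

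In uninephrectomized dogs the chamber pattern recurred in a second set of arrays. Limma called 39 of 52 members higher in the atrium and 1 lower, with a background of 14.7% called higher and 12.5% lower. The median difference was 0.29, against -0.02 for all tested genes, and 47 of 52 were positive, beside 47% of all tested probe sets. In 38 members the atrial and ventricular arrays did not overlap with the atrium higher, a separation found in 11.4% of all tested probe sets, and in RPL3L with the atrium lower, as in 9.57%. All 30 genes called higher in sham dogs were also called here, together with RPL14, RPL19, RPL35A, RPS7, RPS13, RPS14, RPS15, RPS21 and RPS29. Of the small subunit 17 of 21 members were called higher, and of the large subunit 22 of 31. The medians over all tested members of the small and large subunit were 0.31 and 0.29. The called increases ran from 0.19 for RPS29 to 0.66 for RPS20, or 1.14- to 1.58-fold.

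RPS20 read 12.72, 12.72, 12.97, 12.75 and 12.67 in uninephrectomized atria and 12.20, 11.77, 12.22, 12.13 and 12.18 in uninephrectomized ventricles (0.66 ± 0.11, adjusted p = 0.00015). Its ventricular array 2 was the lowest of all 20 arrays, and the difference was between 0.58 and 0.69 when single arrays were left out. RPL10 had means of 12.05 ± 0.12 (SD) and 11.44 ± 0.14 (SD), a difference of 0.61 ± 0.09 (adjusted p = 7.71e-05). RPL13A differed by 0.40 ± 0.06 (adjusted p = 3.05e-05), RPL10A by 0.45 ± 0.07 (adjusted p = 0.00011) and RPL7 by 0.45 ± 0.07 (adjusted p = 0.000126). RPLP0 rose by 0.39 ± 0.08 (adjusted p = 0.00153). RPLP1 (0.03 ± 0.11) and RPLP2 (0.07 ± 0.06) again did not pass.

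Beside RPLP1 and RPLP2, the members called in neither set of dogs were RPL6, RPL17, RPL22, RPL26, RPL32, RPL36, RPS4X, RPS10 and RPS19. They include the dim and the most variable members, but also RPL32, the brightest, with sham means of 13.64 in the atrium and 13.60 in the ventricle. Dimmer sets of RPL32 and RPL17 were called higher in the atrium in the same limma fit. The RPL32 set gave 0.42 ± 0.13 in sham dogs (adjusted p = 0.031) and was not called in uninephrectomized dogs (0.22 ± 0.13). An RPL17 set gave 0.41 ± 0.07 in uninephrectomized dogs (adjusted p = 0.000184), where a further one gave 0.09 ± 0.09 and was not called. Neither RPL17 set was called in sham dogs. RPL6, of the large subunit, is represented by 11 probe sets that disagree. The brightest gave -0.15 ± 0.06 in sham dogs (adjusted p = 0.101). The next in brightness gave 0.35 ± 0.07 (adjusted p = 0.00239) and another -0.24 ± 0.07 (adjusted p = 0.0135). No direction can be given for RPL6, and it was the only member whose called probe sets pointed both ways in a chamber comparison.

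The called members were not spread evenly over the kinds of probe set, a difference that was not tested. Affymetrix marks with s a set whose probes match several transcripts and with x a set with cross-matching probes, and 41 of 52 tested members are read by one of these. Of the 33 s sets 25 were called higher in sham dogs and 32 in uninephrectomized dogs. Of the 8 x sets 4 were called higher in each. Of the 9 sets without such a mark 1 was called higher in sham dogs, RPS28 (0.26 ± 0.06, adjusted p = 0.00468), and RPS28 and RPS15 in uninephrectomized dogs. Over all tested probe sets 11.2% and 14.7% were called higher in sham and uninephrectomized dogs. The unmarked sets stood at 11.1% and 22.2% and the s sets at 75.8% and 97.0%. In sham dogs the unmarked sets thus showed no excess over all tested probe sets. RPL3L is read by an unmarked set. RPS27L and RPL19 are read by a sets, whose probes match several transcripts of 1 gene. Ribosomal protein genes have many processed pseudogenes and near copies, so an s or x set may add up several transcripts. The 3 dim members tested are among the 9 unmarked sets.

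The genes can also be read through the remaining probe sets. Counts here stand beside 11.2% of all tested probe sets called higher and 9.62% lower in sham dogs, and 14.7% and 12.5% in uninephrectomized dogs. Of 52 other tested probe sets of the member genes 14 were called higher and 4 lower in sham dogs, with a median of 0.12. In uninephrectomized dogs 18 of them were called higher and 3 lower, with a median of 0.14. Of 71 tested sets that list a member with other symbols 25 were called higher and 1 lower in sham dogs (median 0.19), and 33 and 0 in uninephrectomized dogs (median 0.25). With the mean of all probe sets of a gene in place of the brightest, 24 members were called higher in sham and 35 in uninephrectomized dogs. The shares above do not belong to that fit, and its own are not given.

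The arrays of sham atrium and ventricle with the same number deviated together, so they may be read as pairs. In these 5 pairs, 30 of 52 members had a higher atrial signal in every pair, beside 16.2% of all tested probe sets. RPL3L, RPS27L and the brightest RPL6 set were lower in every pair, beside 15.9% of all tested probe sets, but the RPL6 sets disagree as given above. RPL3L differed by -1.18 to -0.64, RPS27L by -0.40 to -0.11 and RPL10 by 0.22 to 0.73. Pair 3 stood apart, with 30 members positive against 44 to 49 in the other pairs, while 48.8% to 50.6% of all tested probe sets were positive in each pair. Its ventricular array had the largest 3' gap of all 20, at 1.83. The 3' gap is the amount by which quality control sets near the 3' end of ACTB, EEF1A and GAPDH outshine sets further upstream, and its part in pair 3 was not tested.

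Genes that share the translation machinery were set beside the members, and their counts are to be read against the 11.2% of all tested probe sets called higher and 9.62% called lower in sham dogs. Of 18 measured translation factors and other TOP genes, 8 were called higher in the sham atrium and 0 lower, with a median of 0.23. EEF1A1, the elongation factor that brings aminoacyl-tRNA, had means of 12.86 ± 0.15 (SD) in the atrium and 11.37 ± 0.18 (SD) in the ventricle (1.49 ± 0.10, adjusted p = 1.93e-09). FAU, whose product yields the small subunit protein S30, rose by 0.27 ± 0.06 and RACK1, a scaffold on the small subunit, by 0.41 ± 0.08. PABPC1, the poly(A) binding protein, rose by 0.46 ± 0.07. TPT1 (-0.04 ± 0.08) and EEF1B2 (-0.02 ± 0.06), both TOP genes, and EEF2 (-0.39 ± 0.26) did not pass.

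Mitochondrial ribosomal proteins, nuclear-encoded parts of the separate ribosome that translates respiratory chain subunits, went the other way. Of 73 measured genes 0 were called higher and 29 lower in the sham atrium, with a median of -0.25. In uninephrectomized dogs the counts were 0 and 37, with a median of -0.26. Of all tested probe sets 11.2% and 9.62% were called higher and lower in sham dogs, and 14.7% and 12.5% in uninephrectomized dogs. MRPL14 had 9.52 ± 0.14 (SD) in sham atria and 10.11 ± 0.05 (SD) in sham ventricles (-0.59 ± 0.07, adjusted p = 6.06e-06). MRPL12 differed by -0.58 ± 0.10 and MRPL18 by -0.35 ± 0.06. Of 31 ribosome assembly genes 3 were called higher and 3 lower in sham dogs, a share in each direction (9.68%) near that of all tested probe sets. The nucleolar proteins NCL (0.22 ± 0.06) and NOP58 (0.33 ± 0.11) rose, and NOP10 (-0.43 ± 0.06), SBDS (-0.37 ± 0.07) and NOP14 (-0.48 ± 0.11) fell.

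**Figure D4:**
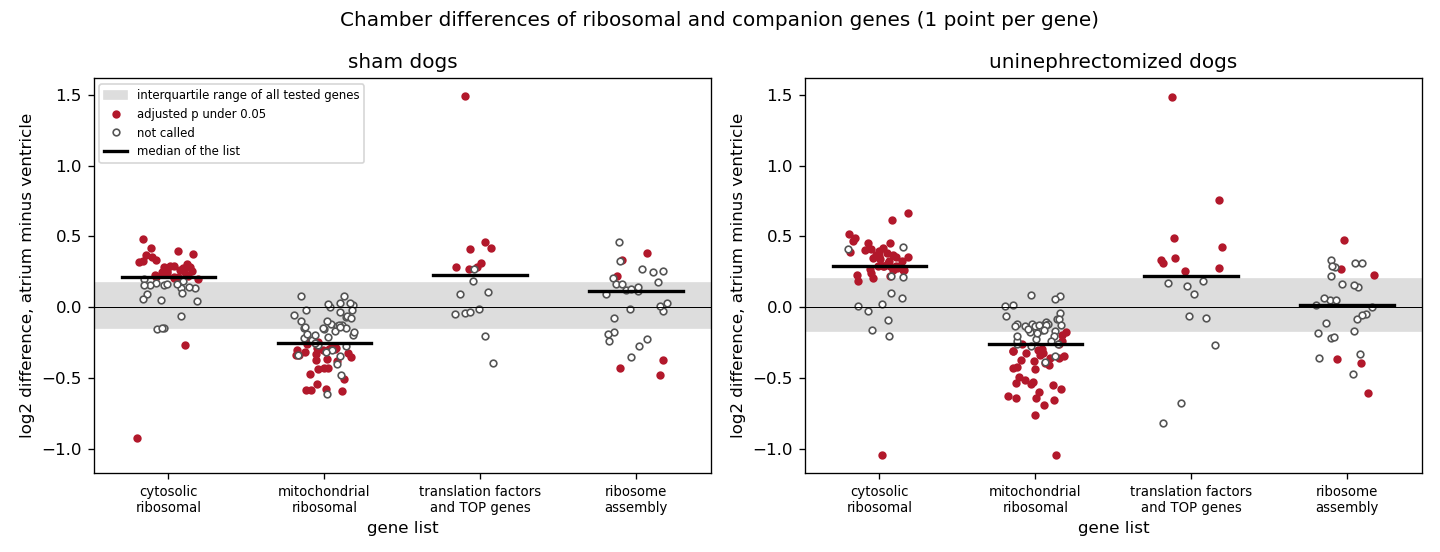
Log2 difference of atrium minus ventricle (vertical axis), 1 point per gene, for 52 cytosolic and 73 mitochondrial ribosomal proteins, 18 translation factors and other TOP genes, and 31 ribosome assembly genes, in sham (left) and uninephrectomized dogs (right); filled points passed adjusted p under 0.05 and the grey band is the interquartile range of all tested genes. The medians of the cytosolic ribosomal genes are 0.21 and 0.29 and those of the mitochondrial ones -0.25 and -0.26.

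Of the kinase pathway that controls TOP messages, 2 of 11 tested genes were called higher and 3 lower in the sham atrium, beside 11.2% and 9.62% of all tested probe sets, and 0 and 2 in uninephrectomized dogs, beside 14.7% and 12.5%. MTOR itself had 7.40 ± 0.12 (SD) against 8.35 ± 0.09 (SD) in the ventricle (-0.96 ± 0.10, adjusted p = 2.57e-06), and TSC2, part of its inhibitor, differed by -0.78 ± 0.16. EIF4EBP1, a translational repressor under mTOR, differed by -0.54 ± 0.15 and EIF4E, its cap-binding target, by 0.29 ± 0.09. Of 4 paralogs outside the rule 0 were called in sham dogs, and RPL22L1 was called in uninephrectomized dogs (0.37 ± 0.12, adjusted p = 0.0227).

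Marker genes of other cell types differed between the chambers in the same arrays. The summed signal of 7 fibroblast markers lay between 13.12 and 14.35 (log2) in sham atria and between 12.71 and 13.01 in sham ventricles, and between 13.78 and 14.50 against 12.64 and 13.07 after uninephrectomy, with no member under log2 3 in any group. The 4 smooth muscle markers ranged from 11.95 to 12.62 in sham atria and from 10.48 to 11.32 in sham ventricles, where 1 of 4 was under log2 3. After uninephrectomy they ranged from 11.61 to 13.42 and from 10.46 to 10.95. The sum of the endothelial markers lay the other way, at 11.22 to 11.38 in sham atria and 11.50 to 11.82 in sham ventricles. Singly, VWF (-0.59) and KDR (-0.89) were called lower in the sham atrium. PECAM1 (0.07), TEK (-0.11) and CDH5 (-0.07) were not called. The sum of 8 cardiomyocyte markers also lay lower in sham atria, at 16.29 to 16.38 and 16.53 to 16.73. Of these genes MYH7 (-0.68), TNNI3 (-0.38), MYBPC3 (-0.36), ACTN2 (-0.33) and PLN (-0.24) were called lower in the sham atrium. TNNT2 (-0.16), RYR2 (-0.05) and TTN (-0.02) were not called. Macrophage markers overlapped, at 6.63 to 7.53 and 6.89 to 7.70, with 4 of 6 members under log2 3. Lymphocyte markers overlapped too, at 4.78 to 8.22 and 4.70 to 6.52, with 5 of 6 under log2 3. Adipocyte markers ranged from 10.15 to 11.87 in sham atria and from 8.79 to 10.17 in sham ventricles, with 2 and 3 of 4 under log2 3. The 4 measured skeletal muscle markers had sums under log2 5 in every group. The part of these cells in the chamber differences was not tested. The 3' gap was 1.19 ± 0.19 (SD) in sham atria and 1.42 ± 0.27 (SD) in sham ventricles. Its EEF1A part ran from 0.60 to 1.29 in sham atria and from 1.15 to 1.81 in sham ventricles. The GAPDH part ran from 1.58 to 2.01 and from 1.69 to 2.06. The ACTB part ran from 0.61 to 1.01 and from 0.42 to 1.69. EEF1A1 itself differed between the chambers, as given above. Whether the averaged gap reflects RNA quality between chambers was not tested. With the gap as a covariate 33 members were called higher and 2 lower in sham dogs, and 40 and 2 in uninephrectomized dogs. The shares of all tested probe sets called with this covariate are not given.

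Uninephrectomy changed no ribosomal protein gene detectably in the left atrium. Limma called 0 of 52 members, as it called 0% of all tested probe sets, and 0 members had an unadjusted p under 0.05, where 6.69% of all tested probe sets did. In no member did the groups separate, beside 0.436% of all tested probe sets that separated upwards and 0.493% downwards. The median difference was 0.01, with 31 members positive, beside 48.9% of all tested probe sets, and 21 negative, and the median standard error was 0.07. With single arrays left out the median ran from -0.02 to 0.04 and the count of positive members from 18 to 40. RPL4, which lines the exit tunnel for the new protein, had the smallest p. Its signals were 12.44, 12.53, 12.35, 12.53 and 12.71 in sham and 12.57, 12.68, 12.68, 12.61 and 12.64 in uninephrectomized atria (0.12 ± 0.06, adjusted p = 0.767). The ranges overlap. RPS28 differed by 0.07 ± 0.06 and RPS3, a protein at the message entry, by 0.07 ± 0.08. RPL26 stood at 0.27 ± 0.15 and RPL22 at 0.44 ± 0.39, both from dim probe sets.

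On the lower side in the atrium stood RPL12 at -0.11 ± 0.07, RPL24 at -0.09 ± 0.07, RPL15 at -0.10 ± 0.09, RPL7 at -0.09 ± 0.07 and RPL17 at -0.06 ± 0.06, with adjusted p between 0.799 and 0.886. The mean over the 52 members per array ran from 11.55 to 11.80 in sham atria and from 11.65 to 11.72 in uninephrectomized atria. The uninephrectomized arrays fell inside the sham range. Sham arrays 2 and 5 were the highest, at 11.80 and 11.79.

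In the left ventricle the members lay slightly lower after uninephrectomy, and none passed the test. Limma called 0 of 52, again against 0% of all tested probe sets, and 5 members (RPL7, RPL12, RPL15, RPL24 and RPL34) had an unadjusted p under 0.05, beside 6.67% of all tested probe sets. The median difference was -0.08 and 7 members were positive, beside 48.5% of all tested probe sets. The 45 negative ones lay in both subunits, 27 of 31 in the large (median -0.08) and 18 of 21 in the small (median -0.08). The members vary together from array to array, so these signs are not separate observations. Of the other tested probe sets of these genes 12 of 52 were positive (median -0.08), and of those with several symbols 4 of 71 (median -0.10). The mean 3' gap was 1.42 ± 0.27 (SD) in sham and 1.14 ± 0.15 (SD) in uninephrectomized ventricles, and with it as a covariate the members' median was -0.02 with 38 negative. The part of RNA quality in this difference was not tested further.

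RPL12, which sits at the base of the stalk, had the smallest p among the members in the ventricle. Its arrays read 10.84, 10.81, 10.81, 10.94 and 10.88 in sham and 10.71, 10.56, 10.61, 10.69 and 10.62 in uninephrectomized dogs. The groups do not overlap, a separation in the lower direction that 0.596% of all tested probe sets show, and the difference was -0.22 ± 0.07 (adjusted p = 0.587). RPL34 was the other member without overlap, at 12.05, 12.13, 12.23, 12.19 and 12.09 against 12.04, 11.93, 11.89, 12.00 and 12.04 (-0.16 ± 0.07, adjusted p = 0.746). RPL15 differed by -0.19 ± 0.09, RPL7 by -0.17 ± 0.07 and RPL24 by -0.16 ± 0.07. On the higher side RPS10 stood at 0.16 ± 0.11, RPL3L at 0.07 ± 0.10, RPS4X at 0.19 ± 0.31, RPL22 at 0.21 ± 0.39 and RPL4 at 0.03 ± 0.06. Over all members the array means ran from 11.43 to 11.58 in sham and from 11.34 to 11.50 in uninephrectomized ventricles, which overlap.

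**Figure D5:**
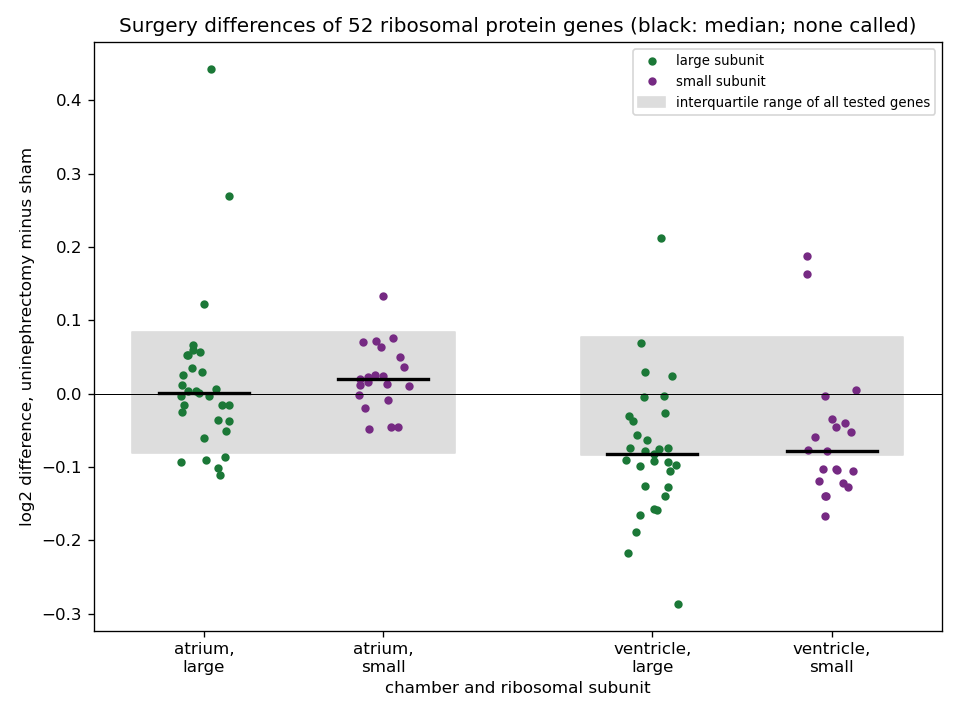
Log2 difference of uninephrectomized minus sham dogs (vertical axis) for 52 ribosomal protein genes by chamber and subunit (horizontal axis); black lines are medians and grey bands the interquartile range of all tested genes. Atrial medians are 0.00 and 0.02 and ventricular medians -0.08 and -0.08 in the large and small subunit, and limma called no point.

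The effect of surgery did not differ detectably between the chambers for any member. Limma called 0 of 52 for the atrial minus the ventricular effect, where 0% of all tested probe sets were called, and 1 member, RPL26, had an unadjusted p under 0.05 (0.56 ± 0.21, adjusted p = 1.00), beside 2.97% of all tested probe sets. The dim RPL26 set read 4.66, 4.75, 4.79, 4.03 and 4.89 in sham and 4.90, 4.64, 4.89, 5.03 and 5.01 in uninephrectomized atria. In ventricles it read 4.88, 4.53, 5.11, 4.75 and 4.58 in sham and 4.85, 4.21, 4.41, 4.49 and 4.46 in uninephrectomized dogs. The groups overlap in both chambers. RPS20 (0.24 ± 0.15), RPS7 (0.20 ± 0.11), RPL34 (0.19 ± 0.11) and RPL19 (0.18 ± 0.11) followed, and RPS10 (-0.15 ± 0.16), RPL3L (-0.12 ± 0.14), RPL17 (-0.08 ± 0.09) and RPS4X (-0.06 ± 0.45) were negative. RPS26 had a value of 0 to 2 decimals, with a standard error of 0.10. The median was 0.08 with 47 of 52 positive, beside 49.8% of all tested probe sets. Because the members vary together from array to array, these signs are not 52 separate observations. The 2 chamber comparisons and this one use the same 20 arrays, so the higher count of calls in uninephrectomized than in sham dogs is not a separate result.

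Within groups the members varied together from array to array. Over deviations from the group means on 20 arrays, the median correlation of a pair of members was 0.58, and 84.5% of 1326 pairs were above 0. RPL24 followed the mean of the other members most closely (r = 0.95), then RPS16 (0.92) and RPS15 (0.89). RPL3L (-0.41), RPL17 (-0.28), RPL36 (-0.18) and RPS4X (-0.10) had negative values. These correlations describe arrays that share probes, normalization and, in part, dogs. The array mean of the members had a correlation of 0.39 with the 3' gap over the same deviations.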

How the data were processed

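The values analysed were the log2 signals the authors deposited for 43035 probe sets on 20 arrays. Background correction, summarization and normalization are not given in the sources used here. Per the labels, Trizol RNA (100 ng) was labelled with the IVT Express kit. Values ranged from 0.43 to 15.0 and were used unchanged.

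The 111 control sets and the 30% of probe sets with the lowest mean were left out. Differences were fitted with limma 3.58.1 in R 4.3.3 (lmFit, eBayes, two-sided), with 1 mean per group, 16 residual degrees of freedom and Benjamini-Hochberg adjustment over 30047 probe sets. The method was tested on simulated data. Symbols came from the platform annotation, in which 29264 probe sets have 1 symbol, 439 several and 13332 none. The array platform, and 5 arrays per group, limit precision. p-values measure the spread between these samples.

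The members and lists were chosen with earlier results of these data known. Genes named are the 5 members with the smallest p in each direction of each of 5 contrasts, paralogs and stalk proteins, the 5 dimmest and the 5 most variable members, and list members. List examples and array values shown beyond these were chosen after seeing them.

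Same-numbered sham arrays of the 2 chambers had correlated deviations (0.463, 0.226, 0.373, 0.295 and 0.209), each above 0.1, so their numbers were taken as pairs. The pairing comes from the data. The 3' gap was the 3' minus the middle set for ACTB and EEF1A and the 3' minus the 5' set for GAPDH, averaged.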

Additional observations from a re-analysis of the deposited data

Results flagged for a closer look

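Among 31 items (the genes named by rule and the array mean of the members) in 4 groups of 5 arrays each, 8 arrays stood apart from the other 4 of their group by a gap above Dixon's 95% critical share of the group's range. Chance gives about 1 in 20 of such groups, and 124 groups were looked at. RPL3L was highest in sham atrial array 3, at 10.12 beside 9.80 for the next, which still lies below all ventricular arrays. RPS20 was highest in uninephrectomized atrial array 3, at 12.97, and lowest in uninephrectomized ventricular array 2, at 11.77. RPLP0 was highest in sham ventricular array 5, at 12.01, and RPL36 lowest in sham ventricular array 2, at 8.99. The dim RPL26 set was lowest in sham atrial array 4, at 4.03. In RPL10L (1.85, sham atrial array 5) and RPL37A (1.62, sham atrial array 1) all values lie near the low end of the scale.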

How the results depend on the processing

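Called counts and medians of the members in the 5 contrasts stayed within 1.5 times or within the spread between arrays under the alternatives tried, with 1 exception: 14 members were called for the sham chamber difference when only the sham arrays were fitted. The spread, an SD of 0.07 for the array mean of the members, is near or above the size of the surgery medians. Staying within it therefore says little about those medians, and the ventricular one shrank with the 3' gap as a covariate. With single arrays left out, that count ran from 22 to 34 and the uninephrectomized one from 38 to 41, and no surgery comparison gained a call. The level of the members was 9.95 with the mean of all probe sets of a gene. In uninephrectomized dogs same-numbered arrays correlated at -0.061, -0.069, 0.115, -0.235 and 0.097, and did not each correlate best with their own number, so the number was not taken as a pairing there. With arrays of the same operation and number as a random replicate block, or the number as a fixed term, 32 members were called in sham and 41 in uninephrectomized dogs. In uninephrectomized dogs these blocks are label numbers and not known dogs, so the 41 does not speak to pairing by dog. With sham dogs alone as blocks, an alternative chosen after seeing the data, 32 and 40 were called. The surgery counts stayed at 0 with each block. The share of all tested probe sets called is given for the main fit alone, so member counts under the alternatives have no background beside them. RPS27L in uninephrectomized dogs passed with quantile normalization, limma-trend, array weights, the 3' gap and the mean of probe sets.

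Among named values, none of them called, some turned sign; the cause was not tested. With the 3' gap as a covariate RPL22 in the ventricle was -0.22 and RPLP1 in the sham chamber comparison 0.032. With the mean of probe sets RPL17 for the difference of effects was 0.036, and RPS10, RPL6 and RPLP1 in uninephrectomized chambers were 0.081, 0.10 and -0.0012. RPS26 for the difference of effects was 0.0084 with equal medians and 0.0023 with array weights. With arrays left out singly, RPS26 ran from -0.049 to 0.041, RPS4X from -0.29 to 0.12 there and from -0.32 to 0.084 in sham chambers, and RPL26 in sham chambers from -0.22 to 0.00013. In uninephrectomized chambers RPS10 ran from -0.14 to 0.0071, RPL6 from -0.040 to 0.0038 and RPLP1 from -0.046 to 0.078. The signal over background of single probes is not in the values used here.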
